A study of Oryza sativa with 7 samples.

Results

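A set of 29381 genomic bins of 100 bp carried methylated cytosines (mCs) in the rice cultivar Pokkali and held none in the IR64 and N22 libraries, and these bins are called Pokkali-only bins here. They were chosen by the measured mC lists themselves. Each of the bins, cut along the 12 chromosomes, had to hold at least 3 listed mCs in both Pokkali libraries and no listed mC in any of the 5 libraries of the other cultivars. They made up 2.38% of the 1233601 bins with 3 or more mCs in both Pokkali libraries, and were 29381 of the 1855278 bins with 3 or more mCs in at least 1 of the 7 libraries. Because the absence of mCs in IR64 and N22 defined the set, that absence is not a result. The files list called mCs only, so a bin without mCs in IR64 or N22 may lack methylation, read coverage or the sequence itself, and these cannot be told apart from the lists.

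Whole genome bisulphite sequencing, which reads unmethylated cytosines as thymines and leaves methylated ones as cytosines, was carried out on seedlings of 3 cultivars: Pokkali (salinity-tolerant), IR64 (sensitive to drought and salinity) and N22 (drought-tolerant). The libraries were Pokkali under salinity and Pokkali control; IR64 under salinity, under desiccation and control; and N22 under desiccation and control. Salinity was a salt solution of 200 mM, desiccation was keeping the seedlings on dry filter paper, and control seedlings received RO water. Each group had 1 library, with control DNA pooled from 3 biological replicates, so every difference below compares libraries, and the reported intervals cover the counting of reads or bins only.

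Plants methylate cytosines in CG, CHG and CHH contexts (H being A, C or T). CG methylation is copied at replication by the maintenance methyltransferase MET1 and is found in transposons and in the bodies of many genes, CHG methylation is kept by chromomethylases together with repressive histone marks, and CHH methylation depends on small RNA-directed DNA methylation or on chromomethylases and marks silenced transposons. The context of the mCs in a bin, their level (methylated reads over all reads at listed mCs) and the length of the methylated stretch therefore describe what kind of methylation a bin carries.

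The Pokkali salinity library listed 14773140 mCs on the 12 chromosomes at a median depth of 11 reads, and the Pokkali control library listed 16741227 at a median depth of 15. The 5 other libraries listed between 14844134 and 18144722 mCs at median depths of 10 to 13. Of the bins with 3 or more mCs in the salinity library and none in the 5 other libraries, numbering 35489, 82.8% also held 3 or more in the control library and 10.5% held none there. Of the 45756 such bins of the control library, 64.2% also held 3 or more in the salinity library and 21.6% held none. For comparison, the same rule found 60216 bins listed only in N22, over 2 libraries, and 25055 listed only in IR64, over 3 libraries.

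Pokkali-only bins fell into 14790 runs of adjacent bins, and short and long stretches held similar numbers of bins. Isolated bins numbered 9490 (32.3%), runs of 2 to 4 bins held 10727 (36.5%), and 1097 runs of 5 or more held 9164 bins (31.2%). Among these, 47 runs of 20 or more held 1314 bins (4.47%), and the longest spanned 57 bins, or 5700 bp. In N22-only bins, 25.7% were isolated and 35.6% lay in runs of 5 or more, and in IR64-only bins 30.9% were isolated and 30.3% lay in such runs. The bins listed only in the other cultivars were thus also divided between isolated bins and runs.

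The context make-up changed with run length. Over all Pokkali-only bins, CG made up 55.3% of mCs in the salinity library and 54.4% in the control library, against 47.3% and 46.1% in the rest of the Pokkali bins. CHH made up 15.7% under salinity and 16.9% in control, against 23.1% and 24.8% in the rest. Bins listed only in the other cultivars were also low in CHH: it made up 15.4% of mCs under desiccation and 14.3% in control in N22-only bins, and 17.8% to 18.6% in the 3 libraries of IR64-only bins. Isolated bins were the richest in CG among the run classes, with 65.1% under salinity and 63.5% in control, and CHG made up 22.0% and 22.3% there. Runs of 20 or more had 46.4% CG under salinity and 46.2% in control, and nearly as much CHG, at 45.1% and 44.8%. CHH was scarce in these long runs, with 8.51% of mCs under salinity and 8.99% in control. The median number of mCs was 7 per bin under salinity and 9 in control for Pokkali-only bins, against 9 and 11 for the rest, while runs of 20 or more had a median of 13 in both libraries.

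**Figure D1:**
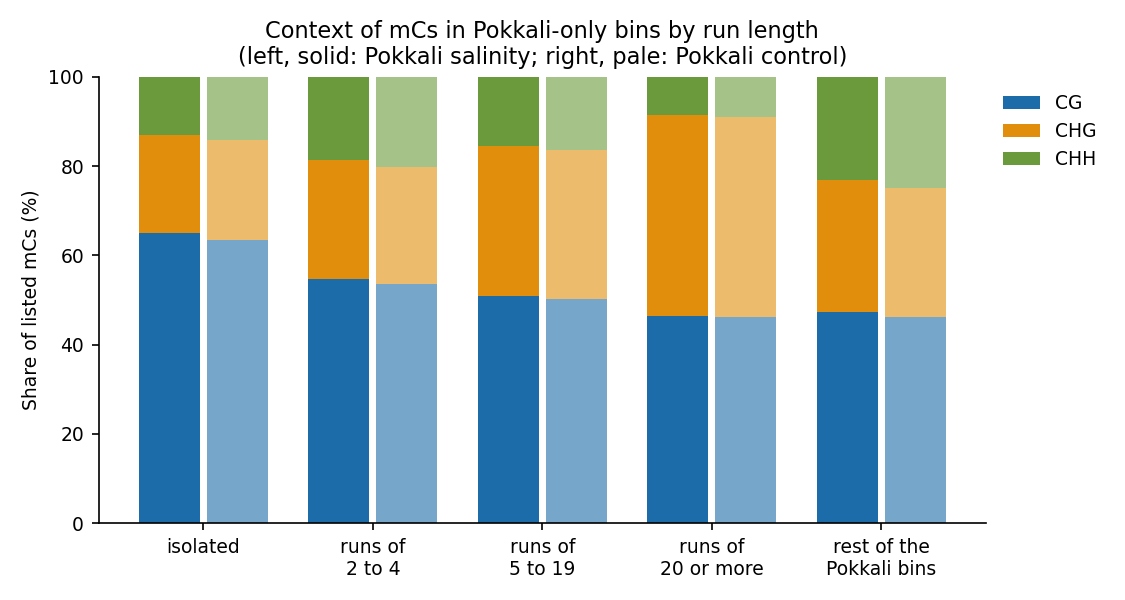
Share of listed mCs (%) in CG, CHG and CHH context for isolated Pokkali-only bins, for runs of 2 to 4, 5 to 19 and 20 or more bins, and for the rest of the Pokkali bins, with the Pokkali salinity library left and the Pokkali control library right in each pair. In the salinity library CG makes up 65.1% of mCs in isolated bins and 46.4% in the longest runs, where CHG makes up 45.1%.

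Counted per bin, 36.7% of isolated bins held mCs in CG context alone in both libraries, against 14.2% of the rest of the Pokkali bins. Bins with all 3 contexts in both libraries made up 10.3% of isolated bins and 32.6% of the bins in runs of 20 or more, against 34.6% of the rest. Isolated bins also held fewer mCs, with a median of 5 under salinity and 6 in control, against 9 and 11 in the rest. The part of mC number in these contrasts was not tested. Bins with CHH alone in both libraries were few, numbering 306 (1.04%). Over all Pokkali-only bins, 74.4% had the same combination of contexts in both libraries, against 76.7% of the rest.

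Methylation levels also separated the isolated bins from the runs. In isolated bins the mean level of single CG mCs was 64.0% under salinity and 63.7% in control, with 37.0% and 36.4% of CG mCs between levels of 20% and 60%. In the rest of the Pokkali bins this mean was 87.5% in both libraries, and 7.25% and 7.30% of CG mCs lay in that range. Of the CG mCs in isolated bins, 42.0% under salinity and 41.9% in control had a level of at least 80%, so isolated bins held both CG mCs of high level and a broad intermediate class. In runs of 20 or more, 92.7% of CG mCs under salinity and 93.2% in control had a level of at least 80%, against 81.7% and 81.9% in the rest. The level pooled over reads in these runs was 92.5% under salinity and 92.8% in control for CG (rest 83.8% and 84.0%), 70.6% and 70.3% for CHG (rest 63.3% and 61.8%), and 32.4% and 31.4% for CHH (rest 34.0% and 30.9%). By this pooled level the long runs thus lay above the rest in CG and CHG. The rest was not split by run length and kept its bins of high depth, so the comparison is not like for like. As means of single mC levels the CHG gap was smaller, with 71.9% under salinity and 71.6% in control (rest 68.8% and 67.1%). By that measure CHH was lower in the long runs, with 37.0% and 35.7% (rest 45.5% and 39.9%).

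The intermediate level was most marked in isolated bins with CG alone. Leaving out the deep bins described below, 3450 isolated bins had CG alone in both libraries, with a median bin level of 40.7% under salinity and 39.8% in control, and 66.1% of them lay between 20% and 60% in each library. The 171225 bins of the same kind in the rest of the Pokkali bins had median levels of 87.3% and 87.7%, with 17.5% and 17.7% of bins in that range. Median bin depth was close in these sets. It was 17.5 reads under salinity and 22.5 in control in the isolated bins, against 17.8 and 23.8 in the rest. CG-alone bins in runs of 5 or more, numbering 407, had median levels of 83.4% under salinity and 84.8% in control. Their median depths were lower, at 14 reads under salinity and 16.8 in control. Isolated bins with CG and CHG but no CHH, numbering 1860, had median levels of 76.2% under salinity and 76.5% in control. These levels were above those of isolated bins with CG alone, and the median depths were lower, at 8.4 and 10 reads. The part of depth in these level differences was not tested. On the 2 strands, 43.4% of CG dyads in isolated bins were listed on both strands under salinity and 56.6% in control, against 64.4% and 74.4% in the rest, and in runs of 20 or more 78.3% and 80.7% were.

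**Figure D2:**
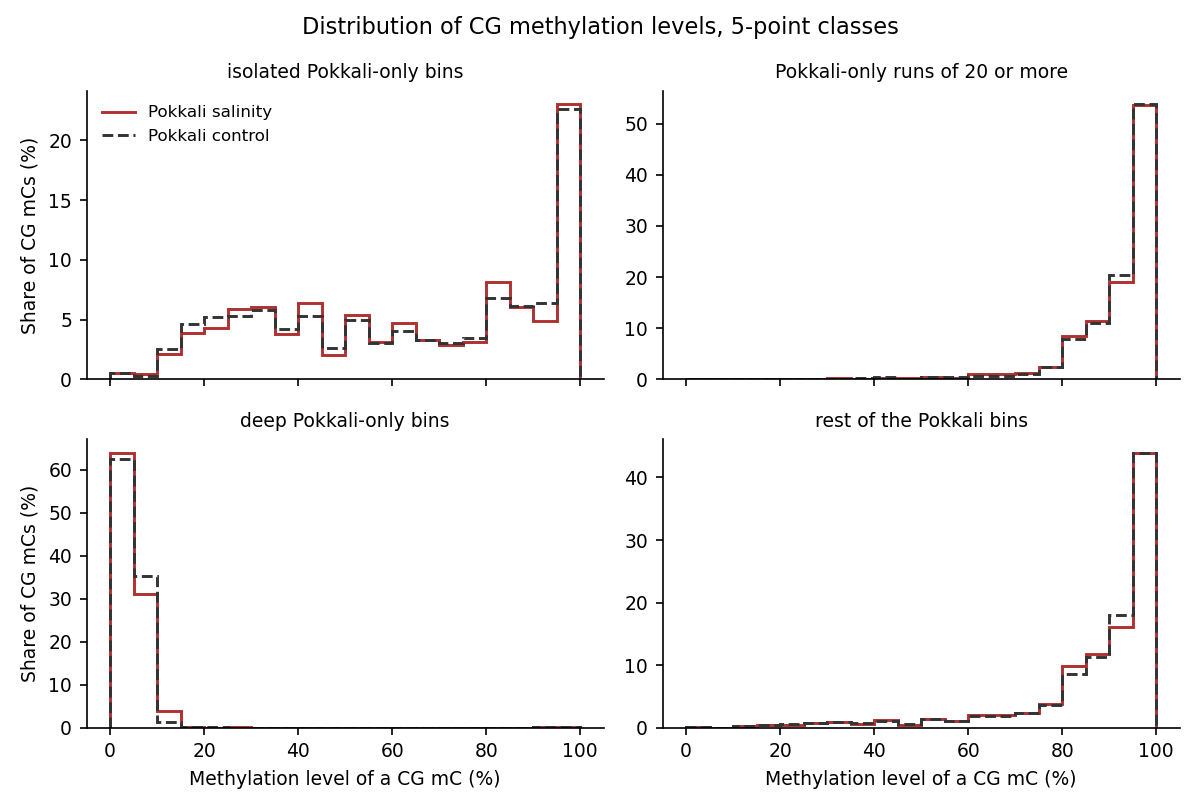
Share of CG mCs (%, y axis, scaled by panel) by methylation level (%, classes of 5 points, x axis) in isolated Pokkali-only bins, Pokkali-only runs of 20 or more, deep Pokkali-only bins and the rest of the Pokkali bins, for the Pokkali salinity (solid) and control (dashed) libraries. Isolated bins hold 37.0% of their CG mCs between 20% and 60% under salinity, the long runs 1.59%, and the deep bins lie almost wholly below 20%.

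A small class of bins set the levels pooled over reads. In 543 Pokkali-only bins (1.85%), called deep here, the mean depth lay above the 99th percentile of depth in both Pokkali libraries (72 reads under salinity and 77 in control). Their CG mCs had a median depth of 303 reads under salinity and 305 in control and a pooled level of 4.10% and 4.41%. These bins held 28.6% of the reads of Pokkali-only bins under salinity and 24.1% in control, but only 1.50% and 1.41% of the mCs. With them, the pooled CG level of Pokkali-only bins was 49.6% under salinity and 52.5% in control, and without them it was 73.5% and 73.2%. The class was defined after the levels had been seen.

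Of the deep bins, 513 lay in 3 blocks. The block on chromosome 12 from 20452601 to 20705400 held 417 deep bins among 493 Pokkali-only bins, and blocks on chromosome 1 from 33526801 to 33572500 and on chromosome 12 from 8530001 to 8544600 held 52 and 44. In the first of these blocks the Pokkali libraries listed 9568 mCs under salinity and 9906 in control, at median depths of 285 and 300 reads and a median level of 4.52% and 4.53%. The 5 IR64 and N22 libraries also listed mCs across it, 3681 to 5584 each, at median depths of 298 to 555 reads and median levels of 2.96% to 5.42%. High depth and low levels were thus present there in all 7 libraries, while the Pokkali lists covered more bins (1368 under salinity and 1420 in control) than those of the other cultivars (576 to 643). Much of that excess follows from the rule, since the 493 Pokkali-only bins of the block are listed in Pokkali alone. By median depth the other blocks differed from it. In the block on chromosome 1 the Pokkali libraries had median depths of 353 reads under salinity and 422 in control, whereas the 3 IR64 libraries had 35 to 43 reads at median levels of 65.04% to 79.39%, and the N22 libraries had 640 reads under desiccation and 384 in control with few mCs (41 and 50). In the block on chromosome 12 from 8530001 the Pokkali median depths were 299 reads under salinity and 284 in control, and those of the other libraries were 29 to 43 except for IR64 control with 116. The medians of IR64 and N22 come from mCs outside the Pokkali-only bins. In both of these blocks their libraries also listed mCs above their own 99th percentile of depth. On chromosome 1 these were 76 to 120 of the 316 to 352 mCs of each IR64 library. In N22 they were all 41 under desiccation and 46 of 50 in control. On chromosome 12 they were 83 to 116 of the 196 to 283 mCs of each library. The median number of methylated reads at CG mCs of deep bins was 13 in both libraries, against 10 under salinity and 12 in control in the rest of the Pokkali bins.

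Bins near the thresholds were examined as a description. The 4385 members with exactly 3 mCs in the Pokkali library with fewer mCs had a mean CG mC level of 57.7% under salinity and 58.3% in control. The 12391 bins just outside, with exactly 2, had 55.5% and 54.2%. The 3687 bins with 3 or more mCs in both Pokkali libraries and a total of 1 mC in the 5 other libraries had 67.2% and 66.8%.

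The surroundings of the bins showed how far the other cultivars' lists reached. The nearest mC of IR64 or N22 lay a median of 62 bp from the edge of an isolated bin and 167 bp from that of a run of 20 or more. The median gap between the flanking IR64 or N22 mCs was 614 bp around isolated bins, 1150 bp around runs of 2 to 4, 2558 bp around runs of 5 to 19 and 6224 bp around runs of 20 or more. These gaps include the bin or run itself, which holds no such mC by the rule. Their rise with run length is therefore partly fixed in advance. Of the isolated bins, 6081 (64.1%) had at least 1 neighbouring bin listed in an IR64 or N22 library, and 3409 (35.9%) had none. Only 81 (0.854%) lay between neighbours with 3 or more mCs in all 7 libraries, and 797 (8.40%) had no mC in either neighbour in any library. In the 27549 bins adjoining a run or isolated bin, the Pokkali libraries listed mCs in 61.5% under salinity and 66.5% in control, and the other libraries in 21.6% to 23.3%, at median depths of 10 or 11 reads against 10 to 13 over all their mCs.

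Few mCs of IR64 and N22 were listed in the bins just beside the runs. In the first bin outside the 2194 edges of runs of 5 or more, the Pokkali libraries averaged 5.25 mCs under salinity and 5.70 in control, and the other libraries 0.566 to 0.801. At 5000 bp from the edge the averages were 5.59 and 6.17 in Pokkali and 1.93 to 2.40 in the others. Over the whole genome, the averages per bin were 3.96 under salinity and 4.49 in control in Pokkali, and 3.98 to 4.86 in the others. Part of this follows from the rule, since 21.1% of the positions at 5000 bp were themselves Pokkali-only bins. Leaving those out, the averages at 5000 bp were 3.92 under salinity and 4.44 in control in Pokkali and 2.45 to 3.05 in the others, so the gap there was far smaller. A bin next to an edge cannot be a Pokkali-only bin, since it would then belong to the run. The same check therefore cannot be made there, and the contrast in the first bin is also shaped by the rule.

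**Figure D3:**
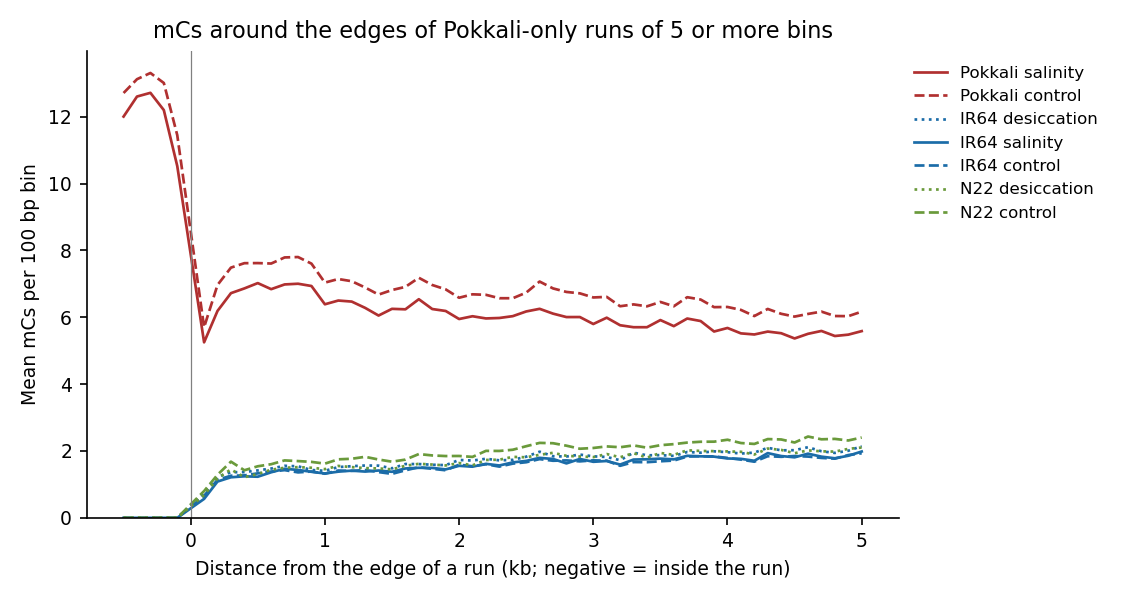
Mean number of mCs per 100 bp bin (y axis) by distance from the edge of Pokkali-only runs of 5 or more bins (kb, x axis, negative inside the run, 2194 edges), a line for each of the 7 libraries. The step at the edge follows from the rule, and at 5 kb, where 21.1% of positions are other Pokkali-only bins, the Pokkali libraries average 5.59 (salinity) and 6.17 (control) mCs per bin and the IR64 and N22 libraries 1.93 to 2.40.

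Pokkali-only bins were unevenly spread over the genome. Chromosome 4 held 5054 of them, or 4.28% of its Pokkali bins (95% Wilson interval 4.17% to 4.40%), followed by chromosome 12 with 3.89% and chromosome 11 with 3.59%. This order rested on few places. Without its 468 deep bins chromosome 12 had 3.32%, below chromosome 11, which had none. There the deep bins were taken out of the count of Pokkali-only bins alone, not out of all Pokkali bins. With the richest window of 1 Mb left out of every chromosome, chromosome 12 had 3.30% and chromosome 4 had 2.63%. Chromosome 11 then had 2.59% and chromosome 1 had 2.47%. Chromosome 5 had the lowest share, with 1072 bins or 1.0% (0.943% to 1.06%). The intervals of chromosomes 4 and 5 do not overlap, but neighbouring bins are not independent and the intervals cover bin counting only.

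**Figure D4:**
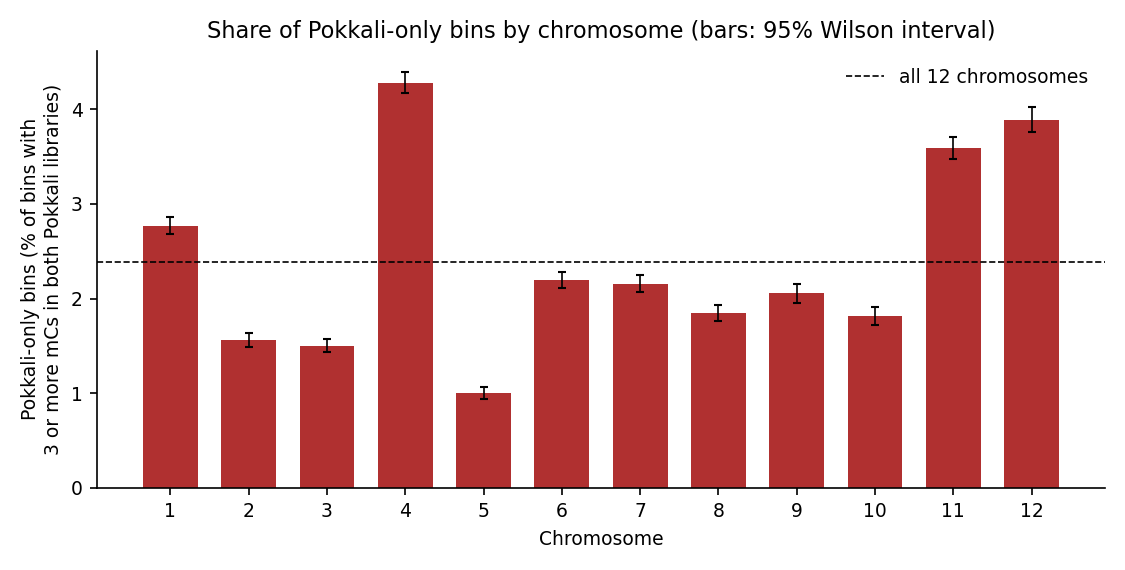
Pokkali-only bins as a share (%) of the bins with 3 or more mCs in both Pokkali libraries, by chromosome, with 95% Wilson intervals and the share over all 12 chromosomes (2.38%, dashed line). Chromosome 4 stands highest with 4.28% and chromosome 5 lowest with 1.0%.

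Within chromosomes, the 5 richest of 380 windows of 1 Mb held 4915 Pokkali-only bins (16.7%), and the median window held 39. The window from 15 to 16 Mb of chromosome 4 held 2090, which was 37.9% of its Pokkali bins, and 56.9% of these lay in runs of 5 or more. In that window 5775 bins had 3 or more mCs under salinity and 6282 in control in Pokkali, and 2283 to 2978 had them in the other libraries. The window from 23 to 24 Mb of chromosome 11 followed with 1043 bins (31.5% of its Pokkali bins, 60.6% of them in runs of 5 or more), and 9 to 10 Mb of chromosome 6 held 626 (21.4%). The window from 14 to 15 Mb of chromosome 4 held 594 (16.2%) but only 16.2% of them in runs of 5 or more, so adjoining windows differed in how their bins were grouped. The window from 20 to 21 Mb of chromosome 12 held 562, of which 417 were deep bins. The interval from 10 to 13 Mb of chromosome 1, in which the salt tolerance locus Saltol of Pokkali has been mapped, was not among these. Its 3 windows held 43, 51 and 59, each above the median window. In all, 153 of its 10490 Pokkali bins were Pokkali-only (1.46%, 1.25% to 1.71%) and 6 lay in runs of 5 or more, against 3538 of 122761 (2.88%) on the rest of chromosome 1, of which 464 lay in the window from 41 to 42 Mb.

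The 5 longest runs carried dense CG and CHG methylation in both libraries. The run of 57 bins at chr1:19640201-19645900 held 951 mCs under salinity and 959 in control, with pooled levels of 93.5% and 93.5% for CG, 79.0% and 79.1% for CHG, and 33.1% and 32.1% for CHH. The nearest IR64 or N22 mC lay 2265 bp to its left and 72 bp to its right. The run of 48 bins at chr6:23655701-23660500 held 733 mCs under salinity and 688 in control, and IR64 had no listed mC for 16862 bp to its right, while N22 had an mC 57 bp away. The run of 48 bins at chr11:23526001-23530800 held 574 and 600 mCs, and the nearest mCs of the other cultivars lay 4006 bp to its left and 3370 bp to its right. The runs at chr4:15519601-15524000 (44 bins) and chr4:15590101-15594300 (42 bins) both lay in the window richest in Pokkali-only bins. They held 17 and 7 CHH mCs under salinity and 19 and 9 in control, few beside the 349 and 199 CG mCs under salinity and 346 and 211 in control. Across the 5 runs the pooled CG level ranged only from 93.2% to 94.7% in the 2 libraries.

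Isolated bins between neighbours methylated in every library gave a different picture. Among the 81 such bins, the mean level of single CG mCs was 56.4% under salinity and 56.9% in control. The bin at chr1:5170501-5170600 held 24 mCs in each library, at 55.3% under salinity and 49.8% in control. All 7 libraries listed mCs in both bins beside it, 4 to 18 each, so reads of IR64 and N22 reached its immediate neighbours. The bin at chr9:12756401-12756500 held 20 mCs under salinity and 22 in control at 27.2% and 34.3%, the bin at chr1:28587901-28588000 held 20 and 19 at 64.3% and 66.7%, and the bin at chr1:42257101-42257200 held 22 and 18, all in CG context, at 73.4% and 66.9%. None of these 4 bins held a CHH mC in either library.

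Single contexts could fill a whole bin. The bin at chr11:3523501-3523600 held 30 CG mCs and no other in each library, at 66.1% under salinity and 80.3% in control, and that at chr4:15528901-15529000 held 29 in each at 85.3% and 79.3%. With CHH alone, the bin at chr7:16742901-16743000 held 35 mCs under salinity at 73.7% and 41 in control at 69.2%, and the bin at chr11:23346501-23346600 held 33 in each library at 84.9% and 76.1%. Over the 306 bins with CHH alone the median level was 40.0% under salinity and 30.3% in control, so these named bins, taken for their number of mCs, stood well above that median.

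Salinity and control libraries of Pokkali were compared bin by bin at mCs listed in both, in all bins with at least 3 such mCs, by Fisher's exact test on methylated and unmethylated reads. A bin was called at a difference of 20 points or more and a Benjamini-Hochberg adjusted p of 0.01 or less over all bins tested. Of the Pokkali-only bins, 26928 could be tested and 2453 could not. Of those tested 111 were called (0.412%), against 0.287% of all 1179895 bins tested. Higher under salinity were 66 of them (0.245%, against 0.237% of all bins), and lower were 45 (0.167%, against 0.0502%). The members' share of called bins that were higher was 59.5% (95% Wilson interval 50.2% to 68.1%), and over all called bins it was 82.5%. The share higher was thus near that of all bins, and the share lower was above it. Of all Pokkali-only bins tested, called ones included, 96.6% lay within 20 points, against 98.1% of all bins. Differences beyond 20 points were thus more frequent among the members, and most of them were not called. The members were also tested on fewer reads. Their median was 86 reads under salinity and 109 in control, against 105 and 135 over all bins tested. The part of read number in these shares was not tested.

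By run length, 33 of 8141 isolated bins, 56 of 9934 bins in runs of 2 to 4 and 22 of 7562 bins in runs of 5 to 19 were called. None of the 1291 tested bins in runs of 20 or more was called by Fisher's exact test (95 had an unadjusted p below 0.05), which allows a share of up to 0.297% by the Wilson interval, a bound just above the 0.287% of all bins. Nor was any of 483 deep bins (89 with an unadjusted p below 0.05, upper bound 0.789%).

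Of the 45 bins called lower, 26 were also called lower with CG alone, and of the 66 called higher, 27 were also called higher with CHH alone. With CG alone, 47 of 19876 Pokkali-only bins were called (0.236%, against 0.0637% of all bins), of which 29 were lower (all bins 0.0407%) and 18 higher (all bins 0.023%). With CHH alone, 58 of 2797 were called (2.07%, against 2.31%), of which 57 were higher (all bins 2.24%) and 1 was lower (all bins 0.0742%). With CHG alone 1 of 9752 was called, against 0.0132% of all bins. The CHH share was thus near that of all bins, whereas the CG share exceeded it.

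The largest rises among called bins with at least 50 reads in each library lay on chromosomes 3 and 1. At chr3:23549801-23549900, an isolated bin, the level at 8 shared mCs was 83.6% of 55 reads under salinity and 41.2% of 114 reads in control, a difference of 42.4 points (Fisher's exact test, adjusted p = 0.000123). At chr1:11607801-11607900, within the 10 to 13 Mb interval named above, it was 75.9% of 58 reads under salinity and 35.3% of 68 reads in control, a difference of 40.6 points (Fisher's exact test, adjusted p = 0.00202). The largest falls were at chr7:10441201-10441300, with 44.2% of 52 reads under salinity and 95.5% of 67 reads in control, a difference of -51.3 points (Fisher's exact test, adjusted p = 6.74e-07), and at chr3:22567001-22567100, in a run of 6 bins, with 56.2% of 169 reads and 95.5% of 134 reads, a difference of -39.3 points (Fisher's exact test, adjusted p = 2.84e-12). In both bins that fell, nearly every mC was in CG context. Reads here are summed over the shared mCs, so a read that covers several mCs is counted at each of them. Fisher's exact test takes these counts as independent, which they are not. The mean depth per listed mC in these named bins was only 5.2 to 10.4 reads under salinity and 6.64 to 13.7 in control.

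Over all listed mCs, CHH levels were higher under salinity. The pooled CHH level of Pokkali-only bins was 39.2% under salinity and 33.6% in control, a difference of 5.54 points (95% interval of read counting 5.38 to 5.71), against 3.06 points in the rest of the Pokkali bins. As a mean of single mC levels, however, the differences were 5.73 points in Pokkali-only bins and 5.54 in the rest, so the 2 sets were close by that measure and apart in the pooled one. At mCs listed in both libraries the pooled difference was 5.15 points, against 2.78 in the rest. The median depth of CHH mCs in Pokkali-only bins was 10 reads under salinity and 16 in control, and with a minimum depth of 10 reads in every library the pooled difference was 3.48 points. The part of depth in the difference was not tested further. In runs of 20 or more the CHH difference was 1.03 points, with an interval of 0.185 to 1.87.

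The CG and CHG differences of Pokkali-only bins depended on the deep bins. The pooled CG level was 2.96 points lower under salinity over all Pokkali-only bins, a difference of -2.96 points that became 0.238 points without the deep bins. For CHG the difference was 0.222 points over all Pokkali-only bins and 2.80 points without the deep bins, against 1.44 points in the rest. Bins of high depth were not taken out of the rest, so the last 2 values are not like for like. As means of single mC levels the CHG differences were close, at 1.82 points without the deep bins and 1.64 in the rest. Without the deep bins, the salinity minus control difference in isolated bins was -0.737 points for CG mCs, 4.08 points for CHG mCs and 6.72 points for CHH mCs, and in runs of 5 to 19 it was -0.0198, 1.46 and 5.37 points.

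**Figure D5:**
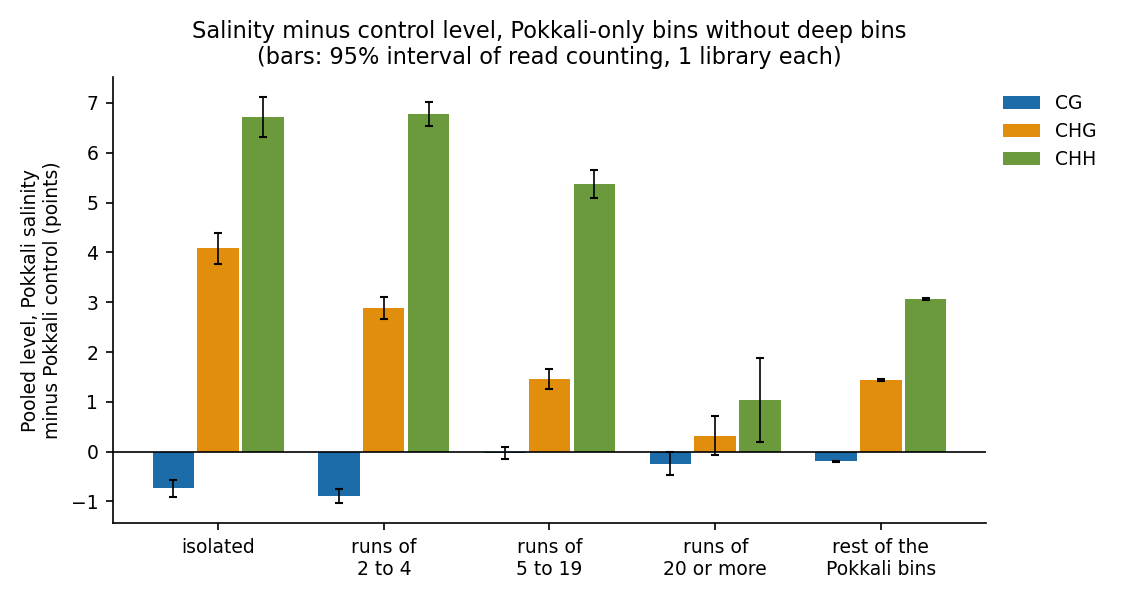
Pooled methylation level in the Pokkali salinity library minus the Pokkali control library (percentage points, y axis) in CG, CHG and CHH context, for Pokkali-only bins by run length without the deep bins and for the rest of the Pokkali bins, with 95% intervals of read counting (1 library each). CHH is higher under salinity in every class, by 6.72 points in isolated bins and 1.03 points in runs of 20 or more, and CG differs by -0.737 points in isolated bins.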

How the data were processed

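Per the file headers and the methods of the study, the authors mapped quality-filtered bisulphite reads uniquely with Bismark to the MSU rice genome, called mCs by a binomial test against the chloroplast non-conversion rate, and deposited, for each mC, the read count covering it (depth, at least 5) and its methylation level as a percent. These steps are stated for the control libraries, and whether the stressed libraries were treated alike is not given in the sources used here. Only called mCs are listed, so depth at unmethylated cytosines is unknown. Methylated reads were recovered from the deposited depth count and percent, and were whole numbers at every mC. Python 3.11.15 with numpy 2.4.6, pandas 2.3.3, scipy 1.17.1 and numba 0.67.0 was used to count mCs in 100 bp bins of the 12 chromosomes, to pool levels, and to run Fisher's exact test with Benjamini-Hochberg adjustment, which was tested on simulated data. Wilson intervals are at 95%, and reads of a bin are not independent molecules. Intervals cover counting error only. Each group has 1 library, so tests compare libraries, not conditions.

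The members and lists were chosen with earlier results of these data known. Named bins are the 5 longest runs, the 4 isolated bins with most mCs whose neighbours hold 3 or more mCs in all 7 libraries, the 2 largest called rises and falls with at least 50 reads in each library, the 2 bins with most mCs in CG alone and in CHH alone, and the 5 windows of 1 Mb with most members. Positions are those of the files. No annotation or sequence of the genome build of the files was used, so genes and transposons at the bins are not named. Alternatives were the depth and mC minimums, the mCs allowed in other libraries, the bin phase, stricter calling, the contexts, shared mCs, the difference threshold and the libraries used. The class of deep bins was added after the data had been seen.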

Additional observations from a re-analysis of the deposited data

Results flagged for a closer look

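Under salinity the pooled CG level moved in opposite directions in the bins listed only in Pokkali and in those listed only in IR64. In Pokkali-only bins it was 49.6% in Pokkali under salinity and 52.5% in Pokkali control, a difference of -2.96 points. In IR64-only bins it was 80.1% in IR64 under salinity and 77.9% in IR64 control, a difference of 2.21 points. The difference between the cultivars was not tested, since each group had 1 library. Without the 543 deep bins the Pokkali-only difference was 0.238 points, and as means of single CG mC levels the differences were 0.196 points in Pokkali-only bins and 1.26 points in IR64-only bins.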

How the results depend on the processing

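Values here sum both Pokkali libraries. As reported, there were 29381 Pokkali-only bins, 31.2% in runs of 5 or more, with 54.8% CG and 16.3% CHH among their mCs, pooled levels of 51.2% (CG), 45.6% (CHG) and 35.8% (CHH), a salinity minus control CHH difference of 5.54 points, and 111 called bins, 59.5% of them higher under salinity. Of 108 alternative values, 30 stayed within the interval of the reported value or within 1.5 times a count and 78 moved. With CG alone most called bins were lower under salinity (29 of 47), whereas most were higher as reported. The CHH difference stayed positive under the 10 alternatives in which it was computed, between 3.48 and 8.31 points. The upper value came from a setting that left 81 bins, with 84 CHH mCs under salinity and 81 in control. Its interval was 4.99 to 11.6 points. Except where the setting itself changes which bins or mCs enter, the cause of a shift was not tested.

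Keeping the bins whose neighbours held 3 or more mCs in all 7 libraries left 81 bins, with 0% in runs, 62.0% CG, 13.5% CHH, levels of 53.8% (CG), 32.8% (CHG) and 27.9% (CHH), a CHH difference of 8.31 points and 1 called bin (100% higher). The 0% in runs, counted among the values that moved, is fixed by this setting. A neighbour with mCs in IR64 and N22 cannot be a Pokkali-only bin. Allowing up to 2 mCs in each other library gave 48537 bins, 23.0% in runs, 56.3% CG and levels of 52.7%, 44.9% and 34.2%. Control libraries alone gave 65221 bins, 21.4% in runs, 53.9% CG and 18.8% CHH, and stressed libraries alone gave 44232 bins, 26.3% in runs, 55.4% CG and 15.2% CHH. With 5 or more mCs in both Pokkali libraries, 29.2% lay in runs, with 52.9% CG, 17.2% CHH, levels of 54.1%, 47.2% and 36.3% and a CHH difference of 5.25 points.

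A minimum depth of 10 reads gave 25.8% in runs, 51.2% CG, 18.6% CHH, levels of 49.9%, 45.7% and 33.6%, a CHH difference of 3.48 points and 72 called bins. Without mCs above the 99th percentile of depth, 30.4% lay in runs, with 54.6% CG, 16.5% CHH, levels of 73.4%, 59.1% and 36.7% and a CHH difference of 6.06 points. Without the deep bins, chosen after seeing the data, the values were 30.5% in runs, 54.5% CG, 16.5% CHH, levels of 73.3%, 58.9% and 36.6% and 5.99 points. Calling mCs again with an error rate of 1% gave 30.3% in runs, 56.2% CG, 15.0% CHH, levels of 55.2%, 49.1% and 38.1% and 5.93 points. Bins shifted by 50 bp gave 16.2% CHH and a CG level of 51.5%.

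The mean of single mC levels was 77.1% (CG), 63.0% (CHG) and 41.6% (CHH), with a CHH difference of 5.73 points, and mCs listed in both Pokkali libraries had pooled levels of 53.2%, 50.2% and 42.1% and a difference of 5.15 points. Called bins numbered 47 with CG alone (38.3% higher), 1 with CHG alone (100% higher), 58 with CHH alone (98.3% higher), 727 with mCs listed in either library, and 42 at a difference of 30 points. In checks chosen after seeing the data, the share of Pokkali-only bins was 3.32% on chromosome 12 without deep bins (3.89% as reported) and 2.63% on chromosome 4 without its richest window (4.28% as reported). The deep bins were left out of the Pokkali-only count alone, and the window out of both counts.

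No paired analysis was possible because each group had 1 library. The location of the bins in genes or transposons was not run, since no annotation of the build was used. Depth also limits the comparison: mCs were listed from 5 reads, the salinity library was shallower than the control, and coverage of IR64 and N22 at bins without mCs is unknown.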
